A study of Arabidopsis thaliana with 18 samples.

Results

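The GH3 auxin-conjugating enzymes GH3.1, GH3.2, GH3.3, GH3.4, GH3.5, GH3.6 and GH3.17 were followed by their RNA in Arabidopsis thaliana roots, with the 7 genes taken by locus identifier (AT2G14960, AT4G37390, AT2G23170, AT1G59500, AT4G27260, AT5G54510 and AT1G28130). Of the 7, 6 have a row among the 25537 genes of the deposited table, and all 6 passed the filter on low counts. GH3.4 has no row and is not analysed here. Poly(A) RNA came from roots of untreated seedlings, 4 days old, grown with 16 h of light and 8 h of dark on medium holding 1% sucrose, in 6 genotypes with 3 libraries each: wild type (WT, Col), rab8d-2, and 4 double mutants that join rab8d-2 with atm-2, with sog1-1, with nac044-1 or with nac085-1. No line carried atm-2, sog1-1, nac044-1 or nac085-1 without rab8d-2, so these alleles were compared only on that background. RAB8D encodes plastid EF-Tu, a translation elongation factor. ATM is a kinase that responds to DNA breaks, SOG1 is a transcription factor that it activates, and NAC044 and NAC085 are related factors that SOG1 induces. Each line is known here by 1 allele, and how many plants went into a library is not given in the sources used here.

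GH3 enzymes join amino acids to small acid hormones. The members described here act on indole-3-acetic acid, the main auxin. The aspartate and glutamate conjugates are inactive and lead to breakdown, while some other conjugates can be cut by amidohydrolases to release auxin again. Several GH3 genes are themselves rapidly induced by auxin through auxin response factors, which forms a feedback on the free hormone. In roots, auxin levels shape the stem cell niche, cell elongation, root hairs and lateral roots.

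In the RefSeq annotation of TAIR10.1, GH3.1 lies at chr2:6451319-6453797 (minus strand), GH3.2 at chr4:17579618-17582022 (plus), GH3.3 at chr2:9863855-9866562 (minus), GH3.4 at chr1:21854493-21856614 (minus), GH3.5 at chr4:13653579-13656285 (plus), GH3.6 at chr5:22130964-22133688 (minus) and GH3.17 at chr1:9825169-9828118 (plus). The models of 6 members have 3 exons, and the longer of the 2 GH3.17 models has 4. The coding sequences run from 590 codons before the stop in GH3.1 to 612 in GH3.5 and GH3.6. Over the alignment, GH3.2 shares 90.0% of coding bases with GH3.4, GH3.5 shares 84.1% with GH3.6, and GH3.2 shares 79.8% with GH3.3. The most divergent is GH3.17, with 58.6% to 62.6% identity to each of the other members. The longest identical run between GH3.2 and GH3.4 is 65 bases, between GH3.2 and GH3.3 56 bases, and between GH3.5 and GH3.6 42 bases. Reads that fall in such runs can be split between copies by the authors' counting. All 108 member values were nevertheless whole numbers within 0.005, so no fractional share of a read remains visible in them. The level of GH3.2 carries the further limit that its nearest copy, GH3.4, is not analysed here.

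The 300 bases before the annotated start are shown for the 4 members in which a motif searched was found, because the members differ in the letters they carry there. The search covered both strands for TGTCTC, the classical auxin response element, TGTCGG, its high-affinity variant, CACGTG, the G-box, AAAATATCT, the evening element, and the SOG1-type palindrome, which is CTT and AAG with 7 bases of any kind between them. Capitals mark the matches, and each sequence is given 5′ to 3′ on the strand of its gene, at chr4:17579318-17579617 (plus) for GH3.2, chr2:9866563-9866862 (minus) for GH3.3, chr4:13653279-13653578 (plus) for GH3.5 and chr5:22133689-22133988 (minus) for GH3.6, from RefSeq TAIR10.1.
GH3.2: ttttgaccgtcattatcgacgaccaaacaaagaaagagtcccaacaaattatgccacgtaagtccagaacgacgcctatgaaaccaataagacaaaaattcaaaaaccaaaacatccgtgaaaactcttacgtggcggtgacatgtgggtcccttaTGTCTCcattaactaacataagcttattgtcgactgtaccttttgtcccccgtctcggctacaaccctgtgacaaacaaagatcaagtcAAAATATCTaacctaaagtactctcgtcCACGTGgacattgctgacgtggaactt
GH3.3: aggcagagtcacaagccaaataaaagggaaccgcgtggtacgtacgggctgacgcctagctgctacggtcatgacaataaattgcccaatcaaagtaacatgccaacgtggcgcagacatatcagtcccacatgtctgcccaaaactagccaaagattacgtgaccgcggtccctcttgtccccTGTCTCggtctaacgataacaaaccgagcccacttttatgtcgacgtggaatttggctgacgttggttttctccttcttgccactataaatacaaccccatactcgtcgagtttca
GH3.5: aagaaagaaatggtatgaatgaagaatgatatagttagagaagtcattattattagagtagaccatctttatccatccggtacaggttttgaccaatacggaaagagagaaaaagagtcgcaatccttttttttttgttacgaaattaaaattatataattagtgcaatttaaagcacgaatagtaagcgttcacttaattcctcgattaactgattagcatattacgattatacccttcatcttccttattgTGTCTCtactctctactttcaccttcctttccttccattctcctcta
GH3.6: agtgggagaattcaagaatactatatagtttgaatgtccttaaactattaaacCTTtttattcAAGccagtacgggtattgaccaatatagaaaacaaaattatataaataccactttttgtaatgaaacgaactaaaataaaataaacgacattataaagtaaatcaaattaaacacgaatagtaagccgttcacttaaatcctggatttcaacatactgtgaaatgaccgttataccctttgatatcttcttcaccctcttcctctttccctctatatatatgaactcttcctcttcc

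TGTCTC stands once each in GH3.2 (bases -144 to -139 from the start), GH3.3 (-116 to -111) and GH3.5 (-47 to -42). The same 6 letters occur in 12.97% of the 27443 nuclear promoters of this length, so a match is common. GH3.2 also holds AAAATATCT at -55 to -47, found in 2.79% of promoters, and CACGTG at -27 to -22, found in 7.09%. GH3.6 holds the SOG1-type palindrome at -247 to -235, found in 11.4% of promoters. TGTCGG was in 4.91% of promoters and is not among the letters of the 7 windows. The windows of GH3.1, GH3.4 and GH3.17 hold no match to the 5 motifs, which says only that these letters are not there. The matches overlap in no case, and they are descriptions of the sequence, not evidence of binding.

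Before the members, the libraries were checked against their labels. Library totals lay between 20103634 and 20471203 estimated counts. RAB8D RNA stood at 90.2 ± 2.62 normalised counts (CPM, counts scaled to library size) in WT (SD, n = 3), 11.4 ± 0.419 in rab8d-2 (12.6% of WT) and 13.2 to 17.7 in the means of the double mutants. For the rab8d-2 libraries the genotype field gives Col (WT) while the titles give the mutant, and the titles were followed. ATM RNA was 5.51 ± 0.256 CPM in the atm-2 double mutant, against 53.7 ± 3.02 in rab8d-2. NAC085 RNA was low in both rab8d-2 (1.73 ± 0.402 CPM) and nac085-1 rab8d-2 (0.915 ± 0.443), and SOG1 RNA was 29.4 ± 1.40 in sog1-1 rab8d-2 against 25.0 ± 1.44 in rab8d-2, so RNA level is no check of that allele. NAC044 RNA goes against its label: it was 19.4 ± 0.588 CPM in rab8d-2 and 159.8 ± 3.48 in the libraries labelled nac044-1 rab8d-2, which are named in that way throughout. Of 10 root marker genes listed, all have a row, with a summed abundance (TPM, scaled to transcript length and to a fixed library sum) of 319 to 497 in every library. Of 10 shoot marker genes, 7 have a row, and their summed TPM was 0.34 to 2.96. STM, WUS, CLV3, SPCH and FIL had 0 to 4 counts over the 3 libraries of any genotype.

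All 6 measured members were expressed in roots, and GH3.17, which prefers glutamate as the amino acid it attaches, was by far the most abundant. On the TPM scale, which corrects for transcript length, WT roots had 49.8 ± 2.39 of GH3.17 (SD, n = 3), 12.1 ± 0.639 of GH3.5, 8.07 ± 0.713 of GH3.2, 7.35 ± 0.293 of GH3.6, 3.62 ± 0.278 of GH3.1 and 0.437 ± 0.0513 of GH3.3. GH3.17 therefore made up 61.2% ± 0.852 of the summed TPM of the 6 genes in WT, and GH3.3 made up 0.535% ± 0.0472. The length implied by the deposited values for GH3.17 was 2289 to 2311 bases in the 18 libraries, near the 2327 bases of its longer model and far from the 2050 of the shorter.

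**Figure D1:**
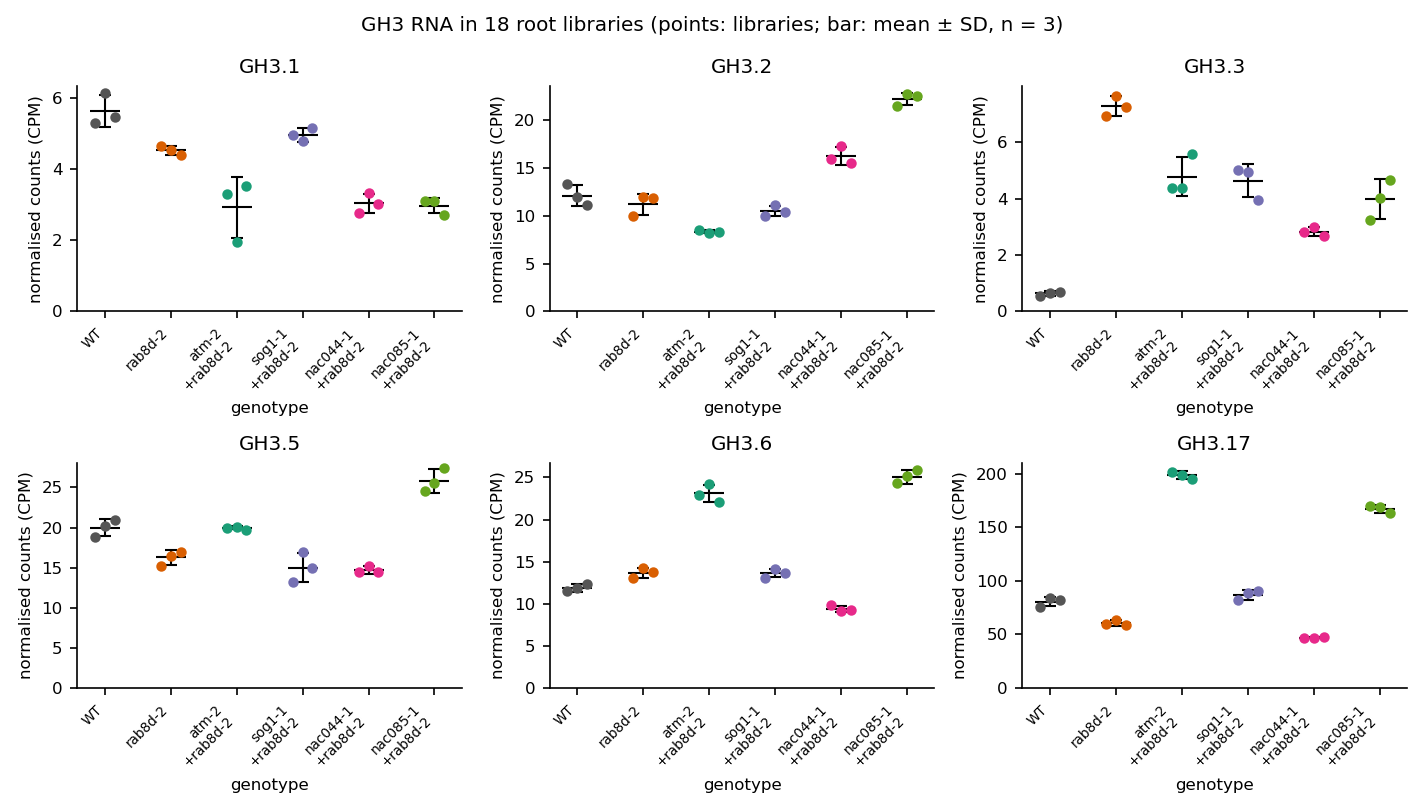
Normalised counts (CPM, y axis from 0) of the 6 measured GH3 genes in the 18 libraries by genotype (x axis), with points for libraries and bars for the mean ± SD (n = 3). GH3.3 sits below 1 CPM in the 3 WT libraries and above 2 in the other 15, and GH3.17 is high in the atm-2 and nac085-1 double mutants.

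GH3.3, an enzyme that conjugates auxin in the group known for its part in adventitious rooting, was the member that rose strongly in rab8d-2. It had 0.550, 0.654 and 0.702 CPM in the WT libraries and 6.93, 7.64 and 7.24 CPM in rab8d-2. The lowest rab8d-2 library lay far above the highest WT library. The fold was 11.4 (log2 fold change 3.5 ± 0.18 SE, n = 3 per group, edgeR quasi-likelihood test, Benjamini-Hochberg adjusted p = 7.01e-22), and its size ranked 112 among the 19981 genes tested. The WT level rests on 38 counts over 3 libraries, against 453 in rab8d-2. Its share of the summed TPM went from 0.535% in WT to 7.0% ± 0.0541 in rab8d-2.

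The other members moved far less in rab8d-2 than GH3.3, and not in a common direction. GH3.17 fell from 75.9, 83.5 and 82.1 CPM in WT to 59.4, 63.4 and 58.4 CPM in rab8d-2, with no overlap between the groups (log2 fold change -0.41 ± 0.04, adjusted p = 1.39e-12). GH3.5, which also acts on salicylic acid, fell from 18.8, 20.2 and 20.9 CPM to 15.2, 16.5 and 17.0 CPM, again without overlap (-0.30 ± 0.07, adjusted p = 0.000186). These falls are small beside the rise of GH3.3. GH3.6, also known as DFL1, rose from 11.5, 11.9 and 12.4 CPM to 13.1, 14.3 and 13.8 CPM (0.20 ± 0.07, adjusted p = 0.0114), a call that was lost without WT replicate 1 (adjusted p = 0.0509) or rab8d-2 replicate 2 (0.0510). GH3.1 was lower, with 5.30, 6.14 and 5.47 CPM in WT and 4.67, 4.54 and 4.41 CPM in rab8d-2 (-0.31 ± 0.13, adjusted p = 0.0278). That last call did not hold with DESeq2 (adjusted p = 0.0823), on log2 TPM with limma (0.145), with upper quartile scaling (0.0628), or without WT replicate 2 (0.136), rab8d-2 replicate 2 (0.0567) or rab8d-2 replicate 3 (0.0768). GH3.2 had 13.3, 12 and 11.1 CPM in WT and 9.96, 11.9 and 11.8 CPM in rab8d-2, groups that overlap, and did not pass the test (-0.11 ± 0.08, adjusted p = 0.209).

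In all, 2 members rose and 3 fell of 6 in rab8d-2 against WT, where 64.5% of all genes tested passed the same threshold (adjusted p under 0.05), 31.7% higher and 32.9% lower. With so many genes changed, a count of 5 of 6 says little about the members, and it was 3 without rab8d-2 replicate 2. At 2-fold or more, 1 member passed, GH3.3, against 9.42% of all genes. The groups did not overlap for 5 of the 6 members and for 67.3% of all genes. The median log2 fold change of the 6 members was -0.20, beside 0.00445 over all genes.

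Each of the 4 double mutants had less GH3.3 RNA than rab8d-2 and more than WT. GH3.3 stood at 4.38, 4.38 and 5.58 CPM in atm-2 rab8d-2, at 5.02, 4.94 and 3.95 CPM in sog1-1 rab8d-2, at 2.83, 2.98 and 2.68 CPM in the libraries labelled nac044-1 rab8d-2, and at 3.25, 4.03 and 4.65 CPM in nac085-1 rab8d-2. None of these 12 libraries reached the lowest rab8d-2 library, 6.93 CPM, and none came down to the highest WT library, 0.702 CPM. Against rab8d-2 the log2 fold changes were -0.60 ± 0.12 with atm-2 (adjusted p = 1.28e-05), -0.65 ± 0.12 with sog1-1 (7.04e-06), -1.36 ± 0.13 with the nac044-1 label (3.08e-12) and -0.87 ± 0.12 with nac085-1 (1.95e-08). The fall under the nac044-1 label was 2.57-fold and ranked 244 of 19981 by size. Against WT the level remained 7.52-fold higher in the atm-2 double mutant, 7.30-fold in the sog1-1, 4.45-fold in the nac044-1-labelled and 6.26-fold in the nac085-1 double mutant. These 4 comparisons share the rab8d-2 libraries, and the other 4 share the WT libraries. Of all genes tested, 50.9% to 66.1% did not overlap between a double mutant and rab8d-2, and 61.5% to 70.4% between one and WT.

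In order, GH3.3 was lowest in WT, then in the libraries labelled nac044-1 rab8d-2, then in nac085-1, sog1-1 and atm-2 rab8d-2, and highest in rab8d-2. The step from the nac044-1-labelled to the nac085-1 libraries (0.49 ± 0.15, adjusted p = 0.00421) was lost without nac085-1 rab8d-2 replicate 3 (0.36, adjusted p = 0.0587). Between double mutants large shares of all genes passed the threshold: 48.3% for nac085-1 against atm-2, 57.8% for sog1-1 against atm-2, 65.8% for the nac044-1 label against atm-2, 52.2% for it against sog1-1, 56.5% for nac085-1 against sog1-1 and 58.5% for nac085-1 against the nac044-1 label. The neighbours nac085-1 and sog1-1 (adjusted p = 0.157), and sog1-1 and atm-2 (0.789), did not differ beyond their spread. Without nac085-1 rab8d-2 replicate 3, GH3.3 was lower with nac085-1 than with sog1-1 (-0.35, adjusted p = 0.0452) and than with atm-2 (-0.39, adjusted p = 0.0266, from 0.0912 with all libraries).

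The summed TPM of the shoot markers was, like GH3.3, lowest in WT and highest in rab8d-2, but the double mutants stood in another order. It was 0.34 to 0.62 in WT, 2.90 to 2.96 in rab8d-2, 1.27 to 1.80 in atm-2, 0.40 to 1.12 in sog1-1, 1.46 to 2.17 in nac044-1-labelled and 1.53 to 1.94 in nac085-1 libraries. Of the 10 listed, 2 were tested. CER6, an enzyme of wax synthesis, rose in rab8d-2, with 26 counts over the WT libraries and 251 over the rab8d-2 libraries (3.2 ± 0.25, adjusted p = 8.27e-16). TMM, a receptor of stomatal patterning, did not pass (0.41, adjusted p = 0.555). The sum in rab8d-2 therefore rests on 1 gene, and its part in the level of GH3.3 was not tested.

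GH3.17 showed the strongest separation among the double mutants. It rose to 202, 199 and 195 CPM in atm-2 rab8d-2 and to 169.8, 169 and 163 CPM in nac085-1 rab8d-2. It was 81.7, 88.4 and 90.0 CPM in sog1-1 rab8d-2 and 47.0, 46.2 and 47.8 CPM in the libraries labelled nac044-1 rab8d-2. No 2 of the 4 double mutants overlapped, and the lowest and highest lay on opposite sides of rab8d-2, whose libraries ran from 58.4 to 63.4 CPM. Both traits also held for GH3.2 and GH3.6. In any 1 pair of double mutants, 54.4% to 68.4% of all genes tested did not overlap. Against rab8d-2, GH3.17 was 3.29-fold higher with atm-2 (log2 fold change 1.72 ± 0.04, adjusted p = 4.9e-38) and 2.77-fold higher with nac085-1 (1.47 ± 0.04, 8.76e-35). It was also higher with sog1-1 (0.52 ± 0.04, adjusted p = 1.29e-15) and lower under the nac044-1 label (-0.36 ± 0.04, 1.87e-09). The size of the change ranked 708 of 19981 genes with atm-2 and 841 with nac085-1.

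From low to high, GH3.17 was ordered as the nac044-1-labelled libraries, rab8d-2, WT, sog1-1, nac085-1 and atm-2 rab8d-2, and all 5 steps passed the test. The step from WT to sog1-1 rab8d-2 is the weakest (0.11 ± 0.04, adjusted p = 0.0154): the groups overlap, and the call was lost with limma on log2 TPM (0.103) and without WT replicate 1 (0.173), sog1-1 rab8d-2 replicate 2 (0.0641) or replicate 3 (0.113). GH3.17 was above its WT level in atm-2 rab8d-2 (2.47-fold) and nac085-1 rab8d-2 (2.07-fold), and the direct difference of these double mutants was -0.25 ± 0.03 for nac085-1 against atm-2 (adjusted p = 6.54e-09).

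GH3.6 was also high in atm-2 and nac085-1 rab8d-2 and low under the nac044-1 label. It had 22.9, 24.2 and 22.1 CPM in atm-2 rab8d-2 and 24.3, 25.2 and 25.9 CPM in nac085-1 rab8d-2. It had 13.1, 14.1 and 13.6 CPM in sog1-1 rab8d-2, inside the range of rab8d-2, and 9.84, 9.09 and 9.22 CPM in the nac044-1-labelled libraries, below every other library. Against rab8d-2, GH3.6 rose with atm-2 (0.75 ± 0.06, adjusted p = 5.42e-15) and with nac085-1 (0.87 ± 0.06, 1.78e-17) and fell under the nac044-1 label (-0.55 ± 0.07, 3.27e-08). With sog1-1 it did not pass the test (-0.01 ± 0.07, adjusted p = 0.898). The atm-2 and nac085-1 double mutants were neighbours in level, with a difference of 0.12 ± 0.05 (adjusted p = 0.0577), which passed with the RLE size factors (0.0371), without atm-2 rab8d-2 replicate 2 (0.0328) and without nac085-1 rab8d-2 replicate 1 (0.0448).

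GH3.5, whose coding sequence is the closest to that of GH3.6, varied over a narrower range. It had 20.05, 20.11 and 19.74 CPM in atm-2 rab8d-2 and 24.5, 25.5 and 27.4 CPM in nac085-1 rab8d-2, above all rab8d-2 libraries in both (0.30 ± 0.07, adjusted p = 0.000192, and 0.67 ± 0.06, adjusted p = 1.46e-12). The atm-2 level was within the range of WT. In sog1-1 rab8d-2 it had 13.2, 16.9 and 15 CPM (-0.11, adjusted p = 0.194) and in the nac044-1-labelled libraries 14.5, 15.2 and 14.4 CPM (-0.14, adjusted p = 0.107). Neither passed the test against rab8d-2. The first passed with limma on log2 TPM (adjusted p = 0.0419) and without sog1-1 rab8d-2 replicate 2 (0.0278), and the second with upper quartile scaling (0.0368).

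GH3.2, also known as YDK1, had a pattern of its own. It had 8.51, 8.23 and 8.25 CPM in atm-2 rab8d-2, below every other library, and 21.5, 22.7 and 22.5 CPM in nac085-1 rab8d-2, above every other library. The libraries labelled nac044-1 rab8d-2 held 15.9, 17.3 and 15.5 CPM, and sog1-1 rab8d-2 held 9.98, 11.1 and 10.4 CPM, inside the range of rab8d-2. Where GH3.17 and GH3.6 were high in atm-2 rab8d-2 and low under the nac044-1 label, GH3.2 was thus low in the first and high in the second. Against rab8d-2 it fell with atm-2 (-0.43 ± 0.09, adjusted p = 2.81e-05), and rose with the nac044-1 label (0.53 ± 0.07, 6.88e-08) and with nac085-1 (0.99 ± 0.07, 4.74e-17). With sog1-1 it did not pass (-0.10, adjusted p = 0.318). Between nac085-1 and atm-2 rab8d-2 the log2 difference of GH3.2 was 1.41 ± 0.07 (adjusted p = 3.25e-21).

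GH3.1 was, after GH3.3, the least abundant member in WT, and it fell in 3 of the 4 double mutants. It had 3.31, 1.95 and 3.54 CPM in atm-2 rab8d-2, 2.78, 3.33 and 3.02 CPM in the nac044-1-labelled libraries and 3.11, 3.1 and 2.72 CPM in nac085-1 rab8d-2, all below the lowest rab8d-2 library. The log2 fold changes against rab8d-2 were -0.63 ± 0.14 (adjusted p = 0.000188), -0.58 ± 0.14 (0.000916) and -0.61 ± 0.14 (0.000276). These 3 groups overlap in level, and neighbours among them did not differ beyond their spread (adjusted p = 0.925 and 0.876). In sog1-1 rab8d-2 it had 4.97, 4.79 and 5.17 CPM (0.13 against rab8d-2, adjusted p = 0.401).

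**Figure D2:**
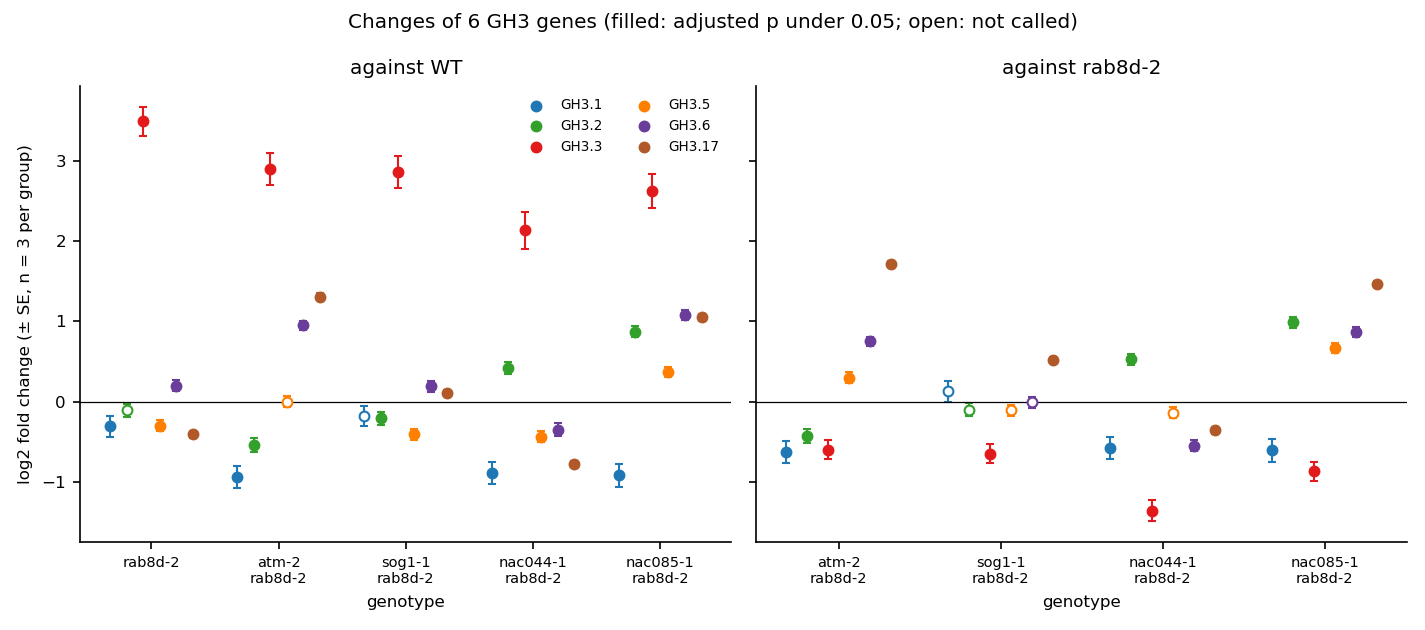
Log2 fold changes (y axis, ± SE, n = 3 per group) of the 6 GH3 genes in each mutant (x axis) against WT on the left and against rab8d-2 on the right, with filled points past an adjusted p of 0.05 and open points not. GH3.3 stands at 2.14 to 3.5 against WT and below 0 against rab8d-2 in the 4 double mutants, and GH3.17 reaches 1.72 with atm-2.

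Counted over the 6 members, 3 rose and 3 fell in atm-2 rab8d-2 against rab8d-2, where 61.6% of all genes passed the threshold (31.7% higher, 29.9% lower), with a median of -0.06 for the members and 0.00981 for all genes. In sog1-1 rab8d-2, GH3.17 rose and GH3.3 fell, 2 of 6 beside 54.6% of all genes, 28.7% higher and 26% lower (medians -0.06 and -0.00522). In the libraries labelled nac044-1 rab8d-2, GH3.2 rose and 4 members fell, 5 of 6 beside 42.9% of all genes, 24.3% higher and 18.6% lower (medians -0.46 and 0.0169). In nac085-1 rab8d-2, 4 members rose and 2 fell, all 6 beside 63.5% of all genes, 31.8% higher and 31.7% lower (medians 0.77 and -0.00516). At 2-fold or more, 1 member passed in atm-2 and in nac085-1 rab8d-2 (GH3.17 in both), and 1 under the nac044-1 label (GH3.3), beside 9.94%, 9.56% and 2.4% of all genes. Whether the members were changed more or less often than other genes was not tested.

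Against WT, 3 members were higher and 2 lower in atm-2 rab8d-2, where 68.6% of all genes were called (35.1% higher, 33.5% lower). The same counts held in sog1-1 rab8d-2, beside 58.1% of all genes (28.8% and 29.2%). Under the nac044-1 label 2 were higher and 4 lower, beside 58.1% (29.3% and 28.8%), and in nac085-1 rab8d-2 5 were higher and 1 lower, beside 64.9% (32.5% and 32.4%). In sog1-1 rab8d-2 the calls of GH3.2 (-0.21 ± 0.08, adjusted p = 0.0235), GH3.6 (0.19 ± 0.07, 0.0208) and GH3.17 (0.11 ± 0.04, 0.0154) are small, and the count of 5 dropped to 3 with DESeq2, to 2 without WT replicate 1 and to 3 without sog1-1 rab8d-2 replicate 2 or replicate 3.

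Because GH3.17 is the most abundant, its level set most of the total. The summed TPM of the 6 genes was 81.4 ± 2.79 in WT, 73.7 ± 3.2 in rab8d-2, 165 ± 2.16 in atm-2 rab8d-2, 83.0 ± 3.82 in sog1-1 rab8d-2, 60.5 ± 0.795 in the nac044-1-labelled libraries and 159 ± 1.22 in nac085-1 rab8d-2 (SD, n = 3). GH3.17 held 76.9% of the total in atm-2 rab8d-2 and 49.9% under the nac044-1 label. Without GH3.17 the sum was 31.6 ± 0.404 in WT, 34.9 ± 1.88 in rab8d-2, 38.0 ± 0.246 in atm-2, 30.3 ± 1.66 in sog1-1, 30.3 ± 1.15 in nac044-1-labelled and 52.1 ± 2.34 in nac085-1 libraries. The nac085-1 double mutant thus had the highest remainder, while atm-2 rab8d-2 had the highest total.

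**Figure D3:**
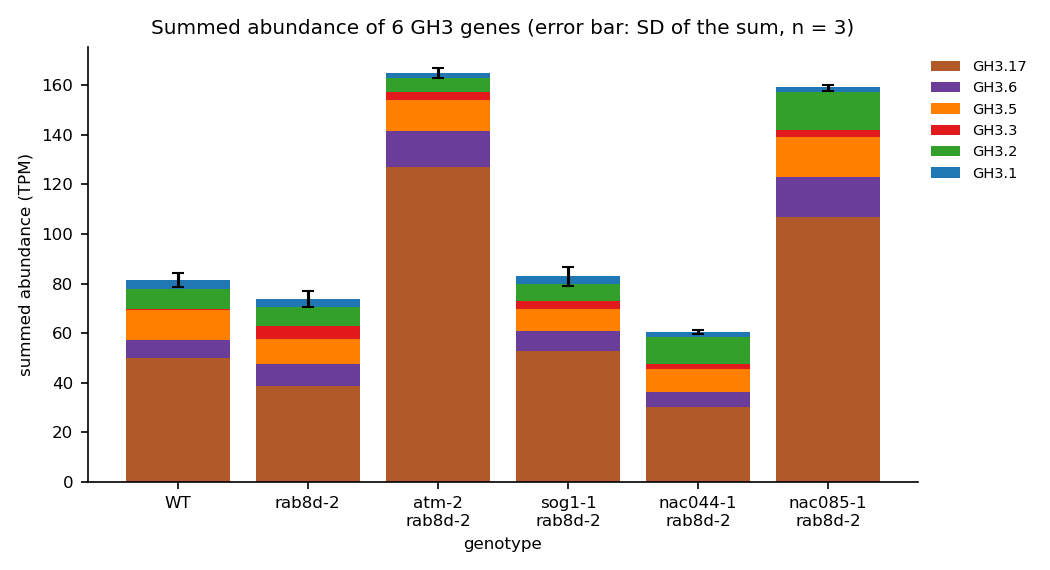
Summed abundance (TPM, y axis from 0) of the 6 GH3 genes by genotype (x axis), stacked by gene, with the SD of the sum (n = 3). The bars reach 165 in atm-2 rab8d-2 and 159 in nac085-1 rab8d-2 and 60.5 to 83.0 elsewhere, and GH3.17 is the largest block in each.

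The members were compared with each other by the root mean square (RMS) difference of their log2 CPM profiles over the 6 genotype means, each centred on its own mean. The closest were GH3.6 and GH3.17 (0.315), then GH3.5 and GH3.6 (0.332), and the most distant were GH3.1 and GH3.3 (1.267). Likeness of pattern did not run with likeness of sequence over all pairs. GH3.2 and GH3.3 share 79.8% of coding bases and differ by 1.206, whereas GH3.6 and GH3.17 share 62.6% and differ by 0.315. In other cases they went together. For GH3.17, the most divergent member, GH3.6 was nearest in sequence over the alignment as well as in pattern. GH3.5 and GH3.6, the next closest pair in pattern, share 84.1%.

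Among 17668 other genes (mean log2 CPM 1 or more), the profiles most like that of GH3.3 were ACC2, a plastid acetyl-CoA carboxylase (RMS difference 0.085, beside an RMS of 1.060 for GH3.3 itself), SBT1.3, a subtilase (0.168), and PDF2, a homeodomain factor of the epidermis (0.175). ACC2 had log2 fold changes against WT of 3.11 in rab8d-2, 2.66 with atm-2, 2.55 with sog1-1, 1.76 under the nac044-1 label and 2.38 with nac085-1. Most like GH3.17 were LSH5 (0.133), CYP705A5, an enzyme of thalianol metabolism (0.150), and AT5G43150 (0.174). LSH5 had 1.21 with atm-2, 1.14 with nac085-1 and -1.04 under the nac044-1 label against WT, where GH3.17 had 1.31, 1.05 and -0.78.

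For GH3.2 the nearest were EHB1 (0.099), UMAMIT26, an amino acid transporter family member (0.160), and LBD29, an auxin-induced factor of lateral root formation (0.179). For GH3.5 they were UCN, a protein kinase (0.047), IDD2, a zinc finger factor (0.054), and AGL30, a MADS-box factor (0.066). For GH3.6 they were AT1G74055 (0.083), AT1G33260 (0.090) and AT4G14620 (0.103), and for GH3.1 CML23, a calmodulin-like protein (0.101), AT4G01575 (0.107) and AT2G39980 (0.117). With 6 means per profile many genes lie close, and likeness here is a description.

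**Figure D4:**
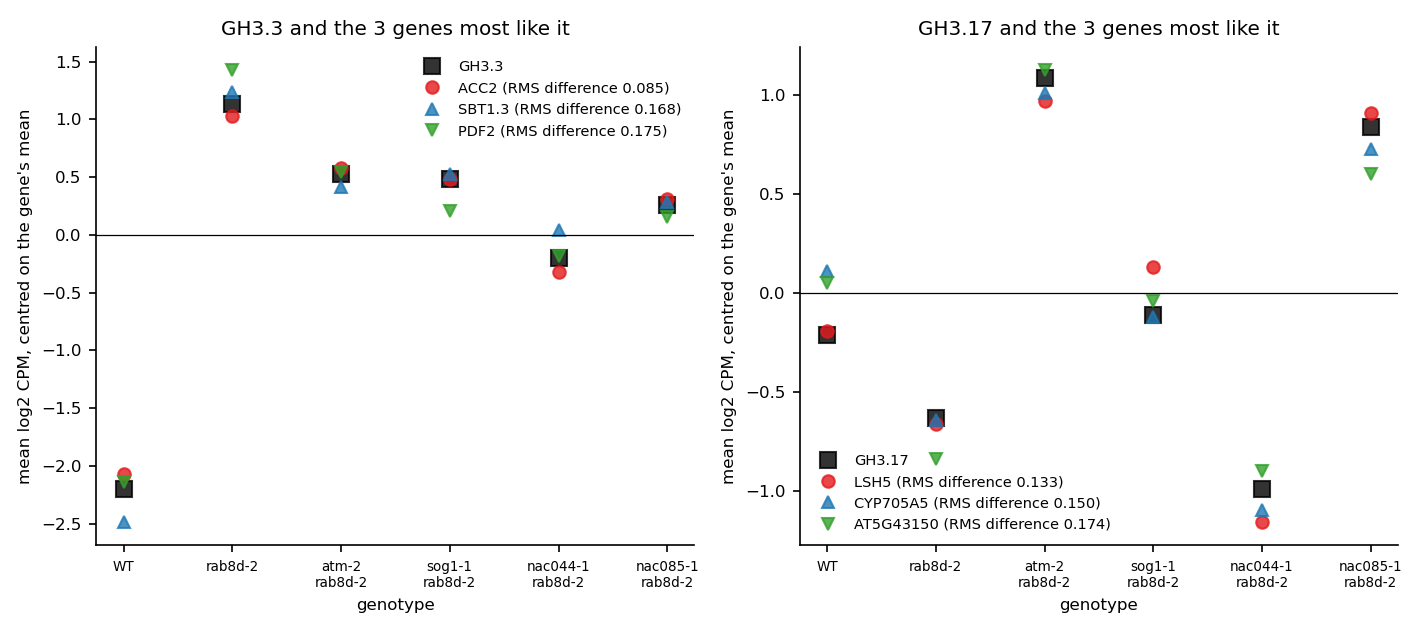
Mean log2 CPM by genotype (x axis), centred on each gene's own mean (y axis), for GH3.3 (left) and GH3.17 (right) with the 3 genes of smallest RMS difference. ACC2 lies 0.085 from GH3.3 and LSH5 0.133 from GH3.17.

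The other GH3 genes of the genome were mixed. Of 12 listed, 9 were tested, and in rab8d-2 against WT 4 rose and 3 fell (median log2 fold change 0.08). Beside them, 31.7% of all genes tested were called higher and 32.9% lower. JAR1, which joins isoleucine to jasmonic acid, had 126 ± 2.94 CPM in rab8d-2 (0.12 ± 0.03, adjusted p = 0.00179) and rose further with atm-2 (0.64), nac085-1 (0.79), sog1-1 (0.21) and the nac044-1 label (0.20). PBS3, which acts in salicylic acid synthesis, was near the lower limit of detection, at 0.267 ± 0.160 CPM in WT and 0.930 ± 0.119 in rab8d-2 (1.78 ± 0.37, adjusted p = 4.35e-05). It fell with atm-2 (-2.79), nac085-1 (-3.17) and sog1-1 (-1.07), and had -0.68 under the nac044-1 label (adjusted p = 0.0681).

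Genes that make auxin went both ways in rab8d-2 against WT. Of 18 listed, 16 have a row and 12 were tested, of which 5 rose and 2 fell (median 0.05). Beside them, 64.5% of all genes tested were called, 31.7% higher and 32.9% lower. The 2 that fell, named after their values were seen, were YUC3 (-0.55 ± 0.1, adjusted p = 4.15e-06) and TAR2 (-0.39 ± 0.11, 0.00153). ASA1, the anthranilate synthase alpha subunit upstream of tryptophan, rose from 95.8 ± 4.23 to 181 ± 0.527 CPM (0.91 ± 0.03, adjusted p = 1.07e-28), and YUC8, a flavin monooxygenase of the last step, rose from 10.5 ± 0.639 to 19.8 ± 0.379 CPM (0.92 ± 0.07, 1.74e-16). ASA1 fell with atm-2 (-1.91) and nac085-1 (-1.28), in the double mutants in which GH3.17 was highest, and rose slightly with sog1-1 (0.10) and under the nac044-1 label (0.14). The part of ASA1 or the other synthesis genes in the GH3 levels was not tested. YUC8 had 0.10 with atm-2, where it did not pass the test (adjusted p = 0.127), and 0.17 with nac085-1. In atm-2 rab8d-2, 3 genes of synthesis rose and 6 fell, and in nac085-1 rab8d-2, 8 rose and 3 fell. Over all genes tested, 31.7% were higher and 29.9% lower with atm-2, and 31.8% and 31.7% with nac085-1.

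The amidohydrolases, which cut conjugates to release the hormone, split into 3 that rose and 3 that fell of 6 tested in rab8d-2 against WT (median 0.15). In that comparison 31.7% of all genes tested were called higher and 32.9% lower. ILL6 rose from 21.5 ± 1.13 to 50.1 ± 0.317 CPM (1.22 ± 0.05, adjusted p = 1.03e-25) and IAR3 from 126 ± 1.88 to 193 ± 2.08 CPM (0.62 ± 0.03, 9.01e-23). Both are known to cut jasmonate conjugates as well. ILL6 fell with atm-2 (-1.70) and nac085-1 (-0.63), while 5 of 6 hydrolases rose in sog1-1 rab8d-2 and 5 of 6 under the nac044-1 label. The shares of all genes called higher in these last 2 were 28.7% and 24.3%. Among 6 genes of oxidation, glucosylation and methylation, 2 rose and 2 fell in rab8d-2. DAO2, a relative of the auxin oxidase DAO1, rose by 1.14 ± 0.08 (adjusted p = 1.59e-16) and DAO1 by 0.33 ± 0.05 (4.18e-08), whereas IAMT1, which methylates auxin, fell by 1.31 on the log2 scale.

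Auxin perception and response genes showed other directions. In rab8d-2 against WT, 64.5% of all genes tested were called, 31.7% higher and 32.9% lower. Against rab8d-2, the shares higher and lower were 31.7% and 29.9% with atm-2, and 28.7% and 26% with sog1-1. They were 24.3% and 18.6% under the nac044-1 label, and 31.8% and 31.7% with nac085-1. Of 26 Aux/IAA repressors tested, 4 rose and 15 fell in rab8d-2 against WT (median -0.16), and in the double mutants against rab8d-2 13 rose and 3 fell with atm-2, 16 and 2 with sog1-1, 12 and 6 under the nac044-1 label, and 16 and 1 with nac085-1. IAA3 fell from 25.5 ± 1.74 to 12.8 ± 0.288 CPM in rab8d-2 (-0.99 ± 0.07, adjusted p = 3.13e-18) and rose by 1.58 with nac085-1, and IAA27 fell by 1.09 and rose by 1.12 in the same comparisons. Both also rose in the other double mutants, IAA3 by 0.67 to 0.88 and IAA27 by 0.23 to 0.67. The 4 that rose in rab8d-2, of which IAA1, IAA2 and IAA5 are named here after their values were seen, were IAA5 (1.79 ± 0.32, adjusted p = 3.3e-06), IAA26 (0.67, 3.02e-18), IAA1 (0.48, 1.13e-06) and IAA2 (0.17, 7.93e-05). IAA5 had the largest change of the list in rab8d-2 at a low level, from 0.368 ± 0.115 to 1.28 ± 0.102 CPM, and fell with sog1-1 (-1.33, adjusted p = 0.000159) and under the nac044-1 label (-1.06, 0.00167). With atm-2 (-0.20, 0.494) and nac085-1 (0.35, 0.169) it did not pass the test, where GH3.3 fell. Of 15 auxin response factors, 5 rose and 4 fell in rab8d-2, among them ARF5 (0.97 ± 0.06, adjusted p = 2.74e-19), ARF19 (0.65 ± 0.05, 3.73e-17) and ARF2 (-0.48 ± 0.03, 2.17e-19). With nac085-1, 10 response factors rose and 2 fell. Of 4 auxin-induced LBD factors tested, LBD16 passed in rab8d-2 (0.58 ± 0.12, adjusted p = 7.43e-05), and all 4 rose with nac085-1 (median 0.78). The 6 receptors TIR1 and AFB1 to AFB5 changed little in rab8d-2, with AFB2 (0.08) and AFB3 (0.21) past the threshold.

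**Figure D5:**
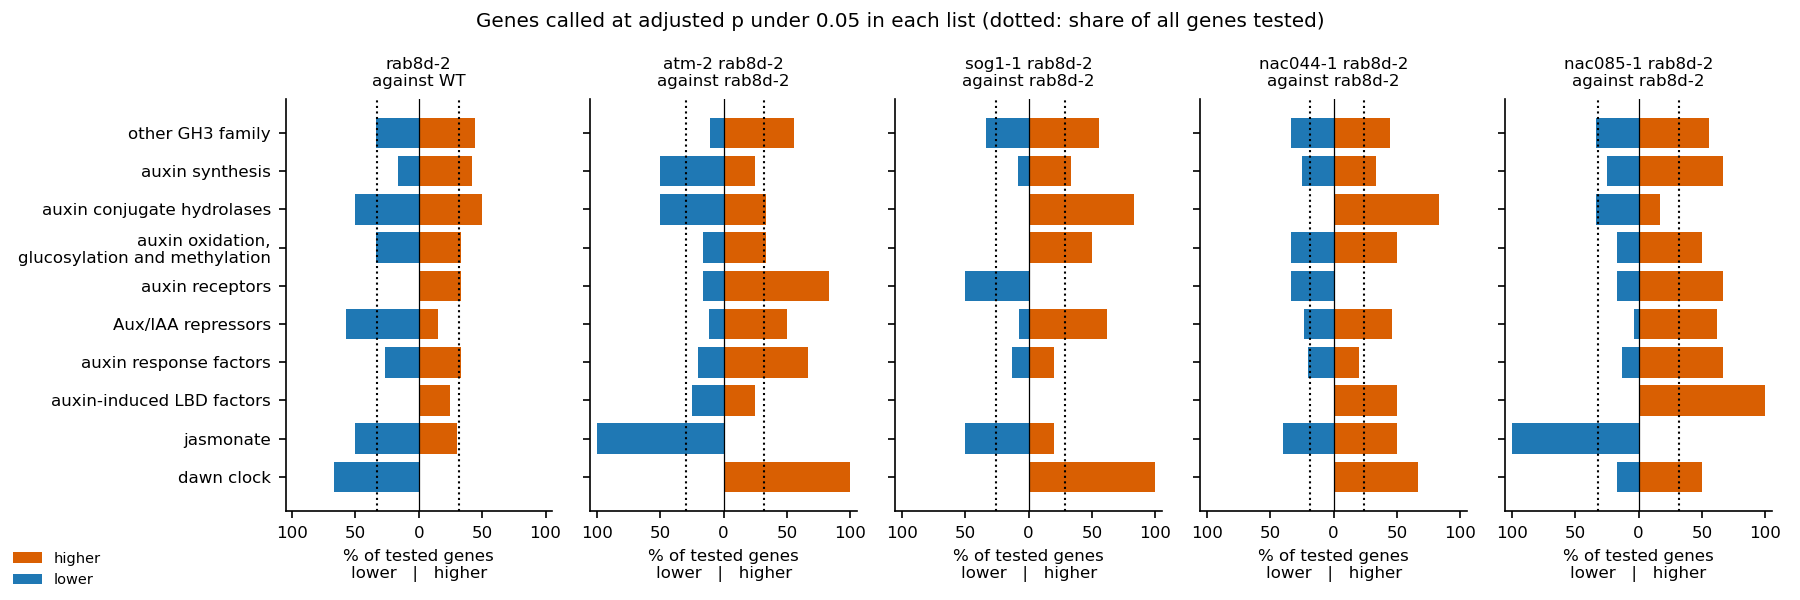
Percent of the tested genes of each list that were higher (right of 0) or lower (left) in 5 comparisons, with dotted lines for the share of all genes tested (in rab8d-2 against WT 31.7% higher and 32.9% lower). Aux/IAA genes lie mostly on the lower side in rab8d-2 and on the higher side in each double mutant, and all 10 jasmonate genes are lower with atm-2 and nac085-1.

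Jasmonate genes fell most in the genotypes where GH3.17 and GH3.6 were highest, and the dawn clock sum was highest in another combination. Elsewhere single jasmonate genes went both ways. Of 10, 3 rose and 5 fell in rab8d-2 against WT. Against rab8d-2, 2 rose and 5 fell with sog1-1, and 5 rose and 4 fell under the nac044-1 label. The shares of all genes called higher and lower were 31.7% and 32.9% in rab8d-2 against WT. They were 28.7% and 26% with sog1-1, and 24.3% and 18.6% under the nac044-1 label. The summed TPM of 10 jasmonate synthesis and response genes was 1699 to 1731 in WT, 1676 to 1702 in rab8d-2, 1549 to 1584 in sog1-1 and 1905 to 1980 in nac044-1-labelled libraries, and 333 to 335 in atm-2 and 416 to 428 in nac085-1 rab8d-2, the genotypes with the highest GH3.17 and GH3.6. ORA47, a jasmonate-related factor that responds early to wounding, was 48.8 CPM in rab8d-2 and 0.843 and 0.933 CPM in these 2 double mutants. It also fell with sog1-1, to 8.58 CPM (-2.51, adjusted p = 3.16e-34), and under the nac044-1 label, to 10.9 CPM (-2.16, 9.08e-32). Dawn clock genes had a summed TPM of 124 to 127 in atm-2 and 96.0 to 102 in sog1-1 rab8d-2 and 40.8 to 53.8 in the other genotypes. No GH3 member was high in those 2 genotypes alone. The part of either list in the levels of the GH3 genes was not tested.

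Markers of differentiated root cells also moved. In rab8d-2 against WT, 6 of 6 xylem markers fell (summed TPM 411 to 427 in WT and 241 to 242 in rab8d-2), as did 5 of 6 phloem markers (94.4 to 97.1 and 47.0 to 49.4), 7 of 8 endodermis markers (676 to 711 and 488 to 498) and 6 of 7 root hair markers (432 to 459 and 287 to 309.5). Root cap markers had 29.2 to 32.5 in WT and 31.7 to 32.5 in rab8d-2. Of all genes tested, 32.9% were called lower in this comparison.

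In the double mutants against rab8d-2, several of these lists rose, also with sog1-1, where GH3.6 did not pass the test. Most xylem and phloem markers rose under the nac044-1 label as well, where GH3.17 and GH3.6 fell. Of all genes tested, 31.7% were called higher with atm-2, 28.7% with sog1-1, 24.3% under the nac044-1 label and 31.8% with nac085-1. Root hair markers rose in 5 of 7 with atm-2, 6 of 7 with sog1-1 and 7 of 7 with nac085-1. With sog1-1 the remaining 1 fell, and under the nac044-1 label none rose and 1 fell. Their summed TPM was 375 to 424, 404 to 446, 393 to 444 and, under the nac044-1 label, 300.5 to 330.3. Xylem markers rose in 6 of 6 with atm-2, sog1-1 and nac085-1 and in 5 of 6 under the nac044-1 label (summed TPM 297 to 301, 401 to 423, 482 to 491 and 385 to 393). Endodermis markers rose in 5, 7 and 7 of 8 with atm-2, sog1-1 and nac085-1 and in 2 under the nac044-1 label, and phloem markers in 2, 4 and 6 of 6 and in 4 under the nac044-1 label. WOX5, a factor of the root stem cell niche, had 1.20 CPM in WT and 5.02 in rab8d-2 (2.05 ± 0.16, adjusted p = 1.36e-15). It was 16.0 with atm-2 (1.67 ± 0.09, adjusted p = 7.98e-22) and 16.8 with nac085-1 (1.74 ± 0.09, 1.52e-22), 5.11 with sog1-1 (0.02, 0.872) and 3.21 under the nac044-1 label (-0.64 ± 0.13, 3.98e-05). Against rab8d-2, WOX5 and GH3.6 changed in the same direction where both passed, which was in all but sog1-1. Of the 10 root markers that include WOX5, 7 rose and 0 fell with atm-2, and 8 and 0 with nac085-1. With sog1-1 4 rose and 2 fell, and under the nac044-1 label 1 and 2. PLT1, another of them, had 791 counts over the rab8d-2 libraries, 763 with atm-2 and 775 with nac085-1. In whole roots, fewer cells of a type and less RNA per cell cannot be told apart, and the part of cell composition in the GH3 levels was not tested.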

How the data were processed

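Per the labels' protocols, poly(A) RNA was purified with oligo(dT) beads from total root RNA. The authors made the estimated counts with RSEM 1.3.1, per the submitters' processing notes, and deposited them with TPM, scaled to a fixed sum per library, and FPKM, scaled by length and depth. FPKM were not used. Aligner, annotation, strand setting and genome build are not given in the sources used here. All 25462 nuclear transcript identifiers were found in RefSeq TAIR10.1, and 99.3% of 4372 genes with 1 transcript had an implied length within 2 bases of the annotated length less a constant, so its gene models and promoters were used.

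Decimals occur in 1.559% to 1.75% of a library's estimated counts, which were rounded to whole numbers. The quasi-likelihood test of edgeR 4.0.16 (R 4.3.3) was fitted to all 18 libraries with 1 mean per genotype, after filterByExpr (minimum count 10) had kept 19981 of 25537 genes and TMM had scaled them by 0.97 to 1.02. Adjustment was by Benjamini-Hochberg over all genes, separately in each of 15 comparisons. The script was tested on simulated data with 200 changed genes. The SE is the log2 fold change over the root of the F statistic. CPM are counts scaled to the TMM library size. Profiles for likeness used log2 CPM with a prior count of 2.

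The common dispersion was 0.000566, or a biological coefficient of variation of 2.38%. Variance between libraries of a genotype was 1.325 to 2.164 times that of counting, so no 2 libraries of the same genotype were copies. Libraries of different genotypes were not compared in this way. The libraries are biological replicates per the labels, but how far their plants were grown apart is not said, and p-values measure the spread between these libraries.

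Named are the members, the 3 genes most like each, the 5 mutated genes, and from each list the genes of smallest p (up to 4 from rab8d-2 against WT, 3 from the double mutants against rab8d-2) or whole lists of up to 7 tested genes. Genes named from marker lists outside that rule were chosen after their values were seen. The members and lists were chosen with earlier results of these data known. Alternatives were RLE and upper quartile scaling, no filter, DESeq2 1.42.0, limma 3.58.1 on log2(TPM + 0.5), a fit of the 2 genotypes compared, a replicate block, leaving out each library, and, added after the data were seen, a fit without the libraries labelled nac044-1 rab8d-2.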

Additional observations from a re-analysis of the deposited data

How the results depend on the processing

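Of 1230 member values under other settings, 1181 kept their direction and their side of the threshold, 20 lost and 8 gained a call, and 21 changed sign, none of them called in either fit. Of 205 counts of members changed, 200 were within 1.5 times the count reported. In rab8d-2 against WT the count of 5 ran from 3 to 5 with a library left out, 3 without rab8d-2 replicate 2. In sog1-1 rab8d-2 against WT it was 3 with DESeq2 and ran from 2 to 5 with a library left out. The cause was not tested.

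With a library left out, the counts ran from 3 to 4 for nac085-1 against atm-2 rab8d-2, from 4 to 5 for nac085-1 against the nac044-1 label, from 5 to 6 for nac085-1 against sog1-1 rab8d-2 and from 2 to 3 for sog1-1 rab8d-2 against rab8d-2.

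The sign changes concern differences near 0 on the log2 scale. With a library left out, GH3.1 ran from -0.17 to 0.212 for the nac044-1 label against atm-2, from -0.202 to 0.179 for nac085-1 against atm-2 and from -0.093 to 0.036 for nac085-1 against the nac044-1 label. GH3.3 ran from -0.105 to 0.081 for sog1-1 against atm-2, GH3.5 from -0.042 to 0.034 for atm-2 rab8d-2 against WT and from -0.117 to 0.06 for the nac044-1 label against sog1-1, and GH3.6 from -0.044 to 0.017 for sog1-1 against rab8d-2. With upper quartile scaling GH3.1 was -0.004 and -0.006 in the first 2 of these and GH3.5 was 0.066 in atm-2 rab8d-2 against WT. The last was also 0.003 with no filter and 0.037 with limma on log2 TPM, which gave 0.043 for GH3.5 under the nac044-1 label against sog1-1.

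Replicate numbers are shared across genotypes. Correlations of same-number deviations were -0.057 to 0.041 over 45 pairs, and none passed the 0.1 set as the mark of pairing. Still, 10 of 18 libraries correlated best with their own number, and that limit would not show a weaker shared effect. With the replicate block, members changed numbered 5 in rab8d-2 against WT and 6, 2, 5 and 6 in the atm-2, sog1-1, nac044-1-labelled and nac085-1 double mutants against rab8d-2, and no call of a member changed. A fit without the libraries labelled nac044-1 rab8d-2, chosen after seeing the data, also changed no call of a member. No scaling moved the median of all genes by over 0.1. The percent of called genes that were higher went from 56.6 to 44.5 with upper quartile scaling under the nac044-1 label against rab8d-2, and with limma on log2 TPM from 52.4 to 36.5 in sog1-1 against rab8d-2, from 48.1 to 36.7 in sog1-1 against atm-2, from 49.9 to 65.1 under the nac044-1 label against sog1-1 and from 49.5 to 62.8 in nac085-1 against sog1-1. Depth limits GH3.3 in WT most, at 38 counts in 3 libraries.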
